A study of Homo sapiens with 30 samples.

Results

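The integrated stress response regulators described here are 10 genes, ATF4, DDIT3, ATF3, ATF5, TRIB3, CHAC1, DDIT4, SESN2, INHBE and NIBAN1, taken by symbol from the 60617 genes of the deposited tables. All 10 were found, and all 10 passed the filter on low counts in both cell lines. RNA had been sequenced from HCT116 and SW480, both human colorectal cancer cell lines, in 30 libraries, 3 for each of 10 groups. In each line the groups were cells given siBRD8-36 or siBRD8-6 against BRD8, siTIP60-11 or siTIP60-2 against TIP60, or a control siRNA. HCT116 had been grown in McCoy's 5A medium and SW480 in Leibovitz's L-15. Every culture, controls included, had been transfected with siRNA at 10 nM and was collected 48 h later. TIP60, encoded by KAT5, is the acetyltransferase of a chromatin complex in which BRD8 is the bromodomain protein. The study asked how the loss of either protein changes gene expression.

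In the integrated stress response, kinases that sense amino acid shortage, unfolded protein, viral RNA or lack of haem phosphorylate the translation initiation factor eIF2alpha, which lowers protein synthesis as a whole but raises translation of ATF4. ATF4 then switches on genes of amino acid supply and, with sustained stress, further regulators such as DDIT3, the gene of CHOP. ATF4 protein is set largely by translation, so the level of its mRNA is not a measure of its activity. Of the other genes, ATF3 and ATF5 encode factors of the same basic leucine zipper class, TRIB3, DDIT4, SESN2 and NIBAN1 encode proteins that restrain growth signalling or modulate translation under stress, CHAC1 encodes an enzyme that breaks down glutathione, and INHBE encodes an activin subunit.

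ATF4 binds DNA at C/EBP-ATF response elements, written here as TGATGNAA. RefSeq start-site windows of 300 bases (GRCh38.p14, 250 before and 50 after the start) were given for 9 of the 10 genes, with several starts for some. The element was found on either strand in 1 window each of CHAC1 and ATF3, against 3.62% of all 35116 windows and 4.46% of the 27305 symbols with a window. The cyclic AMP response element TGACGTCA (1.85% of windows) and the endoplasmic reticulum stress element (0.0769% of windows), searched on both strands, were found in none of the 16 windows of these genes. The element of CHAC1 reads TGATGCAA on the strand opposite to the gene, 209 to 202 bases before the RefSeq start of its window. That of ATF3 reads TGATGGAA on the gene's own strand, 191 to 184 bases before the RefSeq start of its window. The CHAC1 element lies inside the gene as annotated in GENCODE release 29, which begins at chr15:40952962, so it precedes only this RefSeq start. Both are shown because no other of the 9 genes with a window held the element. Its part in how these 2 genes moved, described below, was not tested. The capitals mark the element within 30 bases of the gene's strand, here the plus strand, at chr15:40953251-40953280 for CHAC1 and chr1:212565205-212565234 for ATF3.
CHAC1: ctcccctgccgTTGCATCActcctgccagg
ATF3: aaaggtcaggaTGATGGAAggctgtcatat
A match of letters is a description and not evidence of binding.

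Summed counts per library, in units of 1e6, were 13.4 to 18.6 in HCT116 and 7.07 to 11.7 in SW480, where the control libraries (7.07 to 7.69) were the shallowest. BRD8 mRNA stood at 14.2% and 20.8% of its control mean with siBRD8-36 and siBRD8-6 in HCT116 and at 21.2% and 24.5% in SW480. KAT5 mRNA stood at 9.91% and 7.36% with siTIP60-11 and siTIP60-2 in HCT116 and at 13.6% and 7.999% in SW480. It was also at 80.5% (HCT116) and 75.0% (SW480) with siBRD8-36. Ribosomal protein genes took 8.92% of the counts in control replicate 2 of HCT116, against 6.34% to 7.53% in the other HCT116 libraries, and 9.59% to 10.0% in the SW480 controls, against 7.02% to 8.74% in the depleted SW480 libraries. The summed CPM of 10 colorectal epithelial markers was 5669 to 7569 in depleted and 3412 to 4022 in control HCT116 libraries, and 3903 to 5741 in depleted and 4120 to 4208 in control SW480 libraries. CDX1 was at 0 in 6 of the 10 groups, and KRT20 in 4, each of them an SW480 group. Sums of 6 fibroblast markers were 4.79 to 69.2 CPM and of 6 leukocyte markers 0.562 to 23.3 CPM, and their part in the results was not tested. The labels do not say that replicates were separate cultures, so the tests speak only of the spread among these libraries, and that spread may be technical. In bulk RNA, fewer cells expressing a gene and less RNA per cell cannot be told apart.

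In the control libraries the 10 genes covered a wide range of levels, given here as the deposited TPM, which is scaled for transcript length. In HCT116 controls the order was ATF4 (832 ± 27.1 TPM, SD, n = 3), DDIT4 (407 ± 27.6), TRIB3 (173 ± 7.27), DDIT3 (130.2 ± 3.67), CHAC1 (82.2 ± 6.12), ATF3 (44.6 ± 6.21), ATF5 (40.7 ± 4.64), SESN2 (30.8 ± 5.72), NIBAN1 (13.5 ± 3.20) and INHBE (1.60 ± 0.760). ATF3 and ATF5, and ATF5 and SESN2, overlapped in their libraries' ranges or lay within their spread. In SW480 controls the order was ATF4 (539.8 ± 8.47 TPM), DDIT3 (508 ± 13.7), TRIB3 (475 ± 12.4), DDIT4 (204 ± 10.4), ATF5 (58.8 ± 1.96), ATF3 (56.1 ± 4.15), NIBAN1 (32.0 ± 1.13), SESN2 (26.8 ± 1.18), INHBE (23.8 ± 1.16) and CHAC1 (19.7 ± 0.938). There, ATF5 and ATF3 overlapped, while DDIT3, TRIB3 and ATF4 lay close together at the top.

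**Figure D1:**
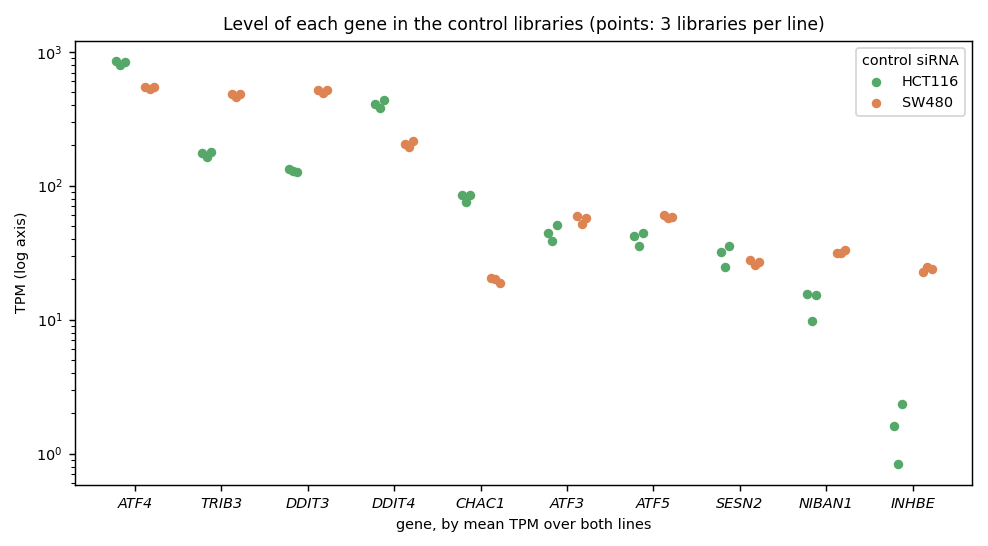
TPM (log axis) of each gene in the 3 control libraries of HCT116 and of SW480, one point per library. INHBE lies near 1.60 TPM in HCT116 and 23.8 TPM in SW480, while CHAC1 lies higher in HCT116 (82.2 TPM) than in SW480 (19.7 TPM).

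Levels between the unperturbed lines were tested on counts with edgeR's quasi-likelihood test on all 30 libraries, and levels compared between libraries are given below as CPM, counts scaled to the library total and by TMM. The threshold used throughout was a Benjamini-Hochberg adjusted p under 0.05. By it, 6 of the 10 genes were lower (37% of the 17411 genes tested) and 3 higher (41.6%) in HCT116 than in SW480 controls. The count of higher genes does not exceed the all-gene share. INHBE differed most, at a log2 difference of -4.59 ± 0.15 (SE, adjusted p = 8.15e-24). DDIT3 (-2.25 ± 0.08), TRIB3 (-1.73 ± 0.10), NIBAN1 (-1.58 ± 0.09), ATF5 (-0.88 ± 0.08) and ATF3 (-0.68 ± 0.07) were also lower in HCT116. CHAC1 (1.81 ± 0.12), DDIT4 (0.72 ± 0.08) and ATF4 (0.34 ± 0.05) were higher, and SESN2 did not pass the test (-0.09 ± 0.08, adjusted p = 0.281, 0.00984 to 0.916 over 38 alternatives, of which 11 called it, with values of -0.22 to 0.18). The line, its medium and the depth of sequencing cannot be told apart in this comparison.

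For a target to count as changing a gene, the gene had to be lower with both of its siRNAs, or higher with both, and the weaker of the 2 p-values was the one adjusted over all genes. By this rule BRD8 depletion in HCT116 lowered 8 of the 10 genes and raised none (12.2% of the 15919 genes tested fell and 12.2% rose), with a median log2 fold change of -1.71 over the 10 genes and -0.02 over all genes. TIP60 depletion in HCT116 lowered 8 and raised 2 (14.1% and 13.7% of all genes), with medians of -1.11 and -0.03. In SW480, BRD8 depletion lowered 8 and raised none (14% and 12.9% of 15277 genes), with medians of -0.78 and 0.00. TIP60 depletion in SW480 lowered 4 and raised none (12.1% and 11.5%), with medians of -0.40 and 0.01. DDIT3, TRIB3 and INHBE fell in all 4 comparisons. Tested on TPM, the SW480 calls of ATF4, ATF5, TRIB3 and DDIT4 for BRD8 and of ATF3 and TRIB3 for TIP60 were lost. The BRD8 and TIP60 groups of a line share its 3 control libraries, so these comparisons are not independent. Without a test, all 6 depleted libraries lay below all 3 control libraries for 8 genes after BRD8 depletion (14.7% of all genes) and 7 after TIP60 depletion (17%) in HCT116, and for 9 (18.3%) and 5 (17.7%) in SW480.

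**Figure D2:**
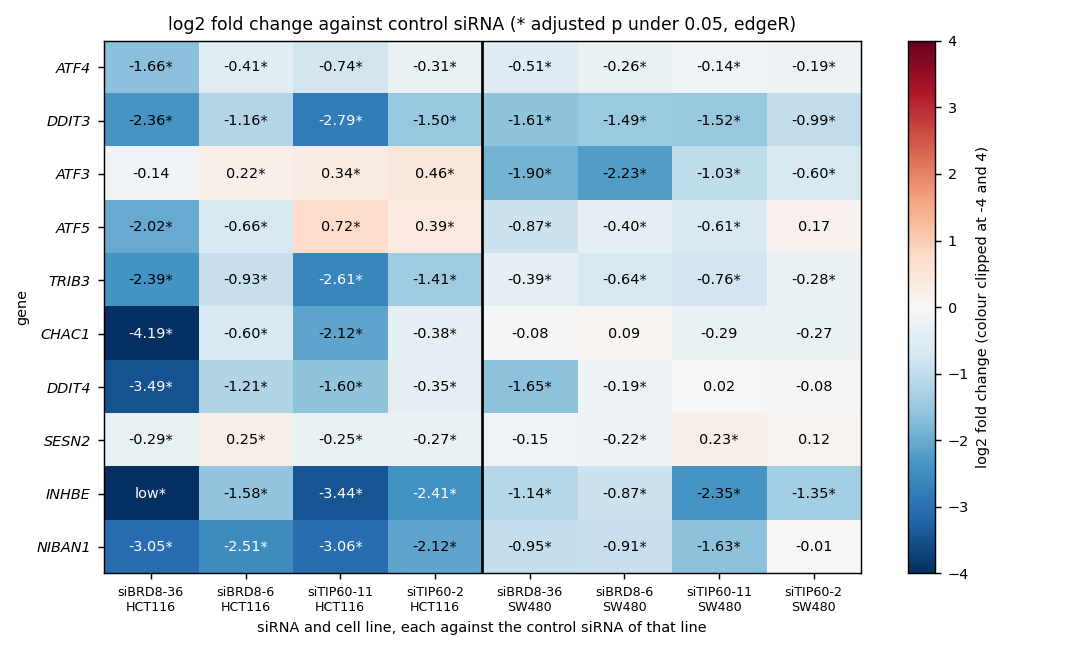
Fitted log2 fold change of each gene with each siRNA against the control siRNA of the same line, from lower (blue) to higher (red), with the colour clipped at -4 and 4. An asterisk marks an adjusted p under 0.05 for that siRNA alone, and INHBE with siBRD8-36 in HCT116 is written as low because it rests on 1 count. DDIT3, TRIB3 and INHBE are lower in all 8 columns, and NIBAN1 in SW480 is at -0.01 with siTIP60-2 and -1.63 with siTIP60-11.

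ATF4 (chr22:39519695-39522685, hg38), the factor at the head of the pathway, fell in HCT116 with both targets and in SW480 with BRD8. In HCT116 it stood at 237, 254 and 249 CPM with siBRD8-36 and at 583, 587 and 595 CPM with siBRD8-6, against 763, 832 and 749 CPM with the control. It stood at 465, 490.4 and 444 CPM with siTIP60-11 and at 604, 667 and 621 CPM with siTIP60-2. None of the 12 depleted libraries reached the lowest control, and siBRD8-36 gave values far below the other siRNAs. The mean log2 fold change of both siRNAs was -1.04 ± 0.05 for BRD8 (adjusted p = 1.37e-05, edgeR) and -0.53 ± 0.05 for TIP60 (adjusted p = 0.000244). In SW480 it stood at 477, 475 and 438 CPM with siBRD8-36 and at 549, 537 and 564 CPM with siBRD8-6, against 657, 668 and 657 CPM with the control. TIP60 siRNAs gave 606, 582 and 611 CPM (siTIP60-11) and 559, 565 and 607 CPM (siTIP60-2). All 12 depleted libraries again lay below the controls, but by little with TIP60. BRD8 depletion changed ATF4 in SW480 by -0.39 ± 0.04 (adjusted p = 0.000273), while TIP60 depletion, at -0.17 ± 0.05, missed the threshold of the joint rule (adjusted p = 0.0557, 0.00787 to 1 over the 24 alternatives, of which 8 called it). Taken alone, siTIP60-11 (-0.14 ± 0.05, adjusted p = 0.0308) and siTIP60-2 (-0.19 ± 0.05, adjusted p = 0.00310) each passed the test. On the TPM scale the value for both TIP60 siRNAs was 0.04, where the median of all genes also lay higher, by 0.20 and 0.21 with the 2 pseudocounts used. ATF4 has processed pseudogenes, and its expected count was not whole in 29 libraries, but the pseudogene with most counts, ATF4P4, had at most 56.8 counts in any library.

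DDIT3 (chr12:57516588-57521737), whose protein CHOP promotes death of stressed cells, fell with every siRNA in both lines. In HCT116 it stood at 14.2, 12.5 and 16.6 CPM with siBRD8-36 and at 34.1, 31.7 and 34.6 CPM with siBRD8-6, against 73.6, 82.1 and 69.4 CPM with the control. TIP60 depletion left 10.3, 11.3 and 10.9 CPM with siTIP60-11 and 23.3, 29.8 and 26.2 CPM with siTIP60-2. No depleted library came within reach of a control, and within each target the siRNA named first was lower throughout. The log2 fold change was -1.76 ± 0.08 for BRD8 (adjusted p = 1.39e-08, edgeR). In SW480, where its control level was higher, it stood at 137, 124 and 115 CPM with siBRD8-36 and 142, 124 and 142 CPM with siBRD8-6, against 382, 382 and 384 CPM with the control. It stood at 132, 134 and 135 CPM with siTIP60-11 and 187, 194 and 195 CPM with siTIP60-2. The groups did not overlap with the control, and the log2 fold change was -1.55 ± 0.05 for BRD8 (adjusted p = 7.11e-16) and -1.26 ± 0.05 for TIP60 (adjusted p = 1.55e-12). DDIT3 overlaps MARS and MBD6 on the opposite strand, and the strand setting of the counting is not given in the sources used here, so its counts are less certain.

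ATF3 (chr1:212565334-212620777), a stress-inducible factor that can repress as well as activate its targets, fell in SW480 with both targets and rose in HCT116 with TIP60. SW480 libraries had it at 17.9, 19.9 and 18.4 CPM with siBRD8-36 and at 16.3, 12.7 and 15.6 CPM with siBRD8-6, against 65.6, 69.998 and 74.3 CPM with the control. The TIP60 libraries held 34.3, 34.8 and 33.6 CPM (siTIP60-11) and 46.3, 47.0 and 45.1 CPM (siTIP60-2). The BRD8 libraries were lowest, the TIP60 libraries lay in between, and none overlapped with the control. It fell by 2.06 ± 0.07 on the log2 scale for BRD8 (adjusted p = 1.40e-15, edgeR) and by 0.81 ± 0.06 for TIP60 (adjusted p = 5.76e-07). In HCT116 it stood at 38.9, 35.0 and 36.8 CPM with siBRD8-36 and at 49.2, 48.0 and 44.3 CPM with siBRD8-6, against 39.7, 38.1 and 43.9 CPM with the control. TIP60 siRNAs gave 52.6, 51.6 and 49.5 CPM (siTIP60-11) and 49.8, 58.7 and 58.8 CPM (siTIP60-2). All 6 TIP60 libraries lay above the controls and the change was 0.40 ± 0.06 (adjusted p = 0.00163), whereas the BRD8 siRNAs had opposite signs, at -0.14 ± 0.08 with siBRD8-36 and 0.22 ± 0.07 with siBRD8-6.

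ATF5 (chr19:49928702-49933935), a factor translated like ATF4 and linked to mitochondrial stress, separated the targets in HCT116. It stood there at 12.6, 12.4 and 11.0 CPM with siBRD8-36 and at 32.3, 29.2 and 30.7 CPM with siBRD8-6, against 49.3, 46.6 and 49.2 CPM with the control. With siTIP60-11 it stood at 79.3, 79.5 and 81.0 CPM and with siTIP60-2 at 56.1, 70.4 and 64.3 CPM. Every BRD8 library lay below and every TIP60 library above the controls. It fell by 1.34 ± 0.07 for BRD8 (adjusted p = 1.86e-06, edgeR) and rose by 0.56 ± 0.06 for TIP60 (adjusted p = 0.000275). The direct difference between BRD8 and TIP60 depletion was -1.89 ± 0.06 (adjusted p = 3.75e-15). In SW480 it stood at 51.9, 52.95 and 52.1 CPM with siBRD8-36 and 66.2, 69.1 and 81.4 CPM with siBRD8-6, against 95.02, 96.3 and 95.9 CPM with the control. TIP60 depletion left 60.0, 56.5 and 71.2 CPM with siTIP60-11 and 110.7, 112 and 100.1 CPM with siTIP60-2. BRD8 depletion lowered it (-0.64 ± 0.07, adjusted p = 0.000281), but the TIP60 siRNAs parted, at -0.61 ± 0.08 with siTIP60-11 and 0.17 ± 0.08 with siTIP60-2. ATF5 overlaps NUP62 and IL4I1 on the opposite strand, with the same uncertainty as for DDIT3.

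TRIB3 (chr20:362835-397559), the gene of a pseudokinase that binds AKT, fell in all 4 comparisons and by more in HCT116. In HCT116 it stood at 43.6, 45.8 and 46.9 CPM with siBRD8-36 and at 123, 122 and 130.2 CPM with siBRD8-6, against 229, 252 and 236 CPM with the control. The TIP60 libraries held 35.0, 46.1 and 36.6 CPM (siTIP60-11) and 70.5, 106 and 94.2 CPM (siTIP60-2). None of these groups overlapped with the control. The change was -1.66 ± 0.10 for BRD8 (adjusted p = 2.57e-05, edgeR) and -2.01 ± 0.10 for TIP60 (adjusted p = 4.86e-07). Within SW480 it stood at 672, 639 and 634 CPM with siBRD8-36 and at 570.2, 480.3 and 590.2 CPM with siBRD8-6, against 849, 850.4 and 856 CPM with the control. With siTIP60-11 it stood at 493, 476 and 536 CPM and with siTIP60-2 at 685, 704 and 722 CPM. The order of the BRD8 siRNAs was reversed relative to HCT116, and the change was -0.52 ± 0.05 for either target (adjusted p = 1.64e-05 with BRD8 siRNAs and 0.00136 with TIP60 siRNAs).

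CHAC1 (chr15:40952962-40956519), the glutathione-degrading enzyme gene whose window holds the response element printed above, fell in HCT116 and passed no test against the control in SW480. In HCT116 it stood at 4.79, 3.83 and 4.76 CPM with siBRD8-36 and at 53.6, 51.7 and 57.0 CPM with siBRD8-6, against 81.5, 83.1 and 81.6 CPM with the control. TIP60 depletion left 17.1, 21.9 and 17.7 CPM with siTIP60-11 and 53.9, 70.4 and 64.9 CPM with siTIP60-2. Most of the transcript was left with siBRD8-6 and siTIP60-2, while siBRD8-36 left 5.43% of the control mean. The change was -2.40 ± 0.09 for BRD8 (adjusted p = 3.43e-05, edgeR) and -1.25 ± 0.08 for TIP60 (adjusted p = 0.00239, but 0.0591 with limma on log2(TPM + 0.1)). In SW480 it stood at 26.9, 24.8 and 19.4 CPM with siBRD8-36 and at 26.8, 22.5 and 30.3 CPM with siBRD8-6, against 26.0, 26.8 and 22.3 CPM with the control. The TIP60 libraries held 20.4, 19.6 and 21.2 CPM (siTIP60-11) and 16.8, 20.3 and 25.2 CPM (siTIP60-2). The BRD8 libraries straddled the controls (0.01 ± 0.12, adjusted p = 1), and the TIP60 libraries tended lower with overlap (-0.28 ± 0.13, adjusted p = 0.229).

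**Figure D3:**
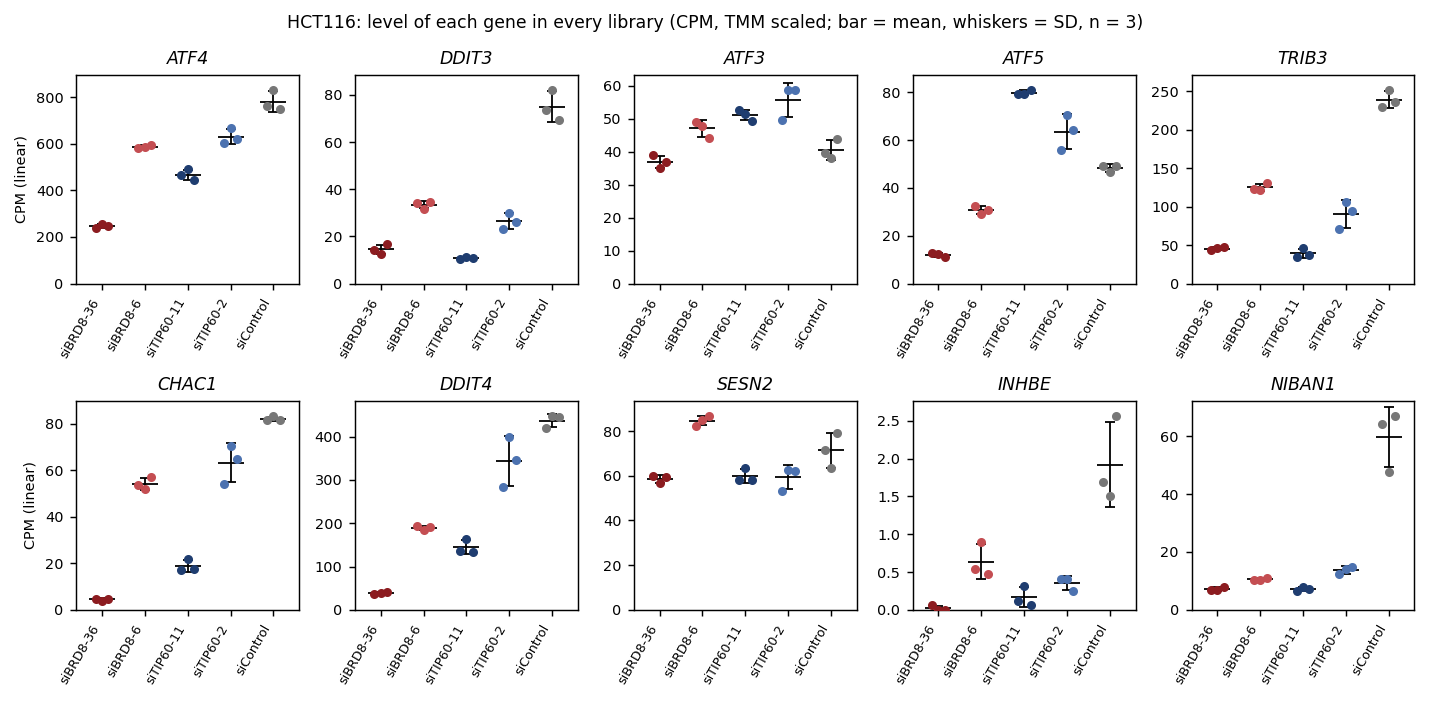
CPM (linear axis from 0) of each gene in every HCT116 library by siRNA, with the mean as a bar and the SD of 3 libraries as whiskers. NIBAN1 lies at 6.55 to 14.9 CPM in all 12 depleted libraries and 47.7 to 66.9 CPM in the controls, and CHAC1 with siBRD8-36 at 3.83 to 4.79 CPM.

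**Figure D4:**
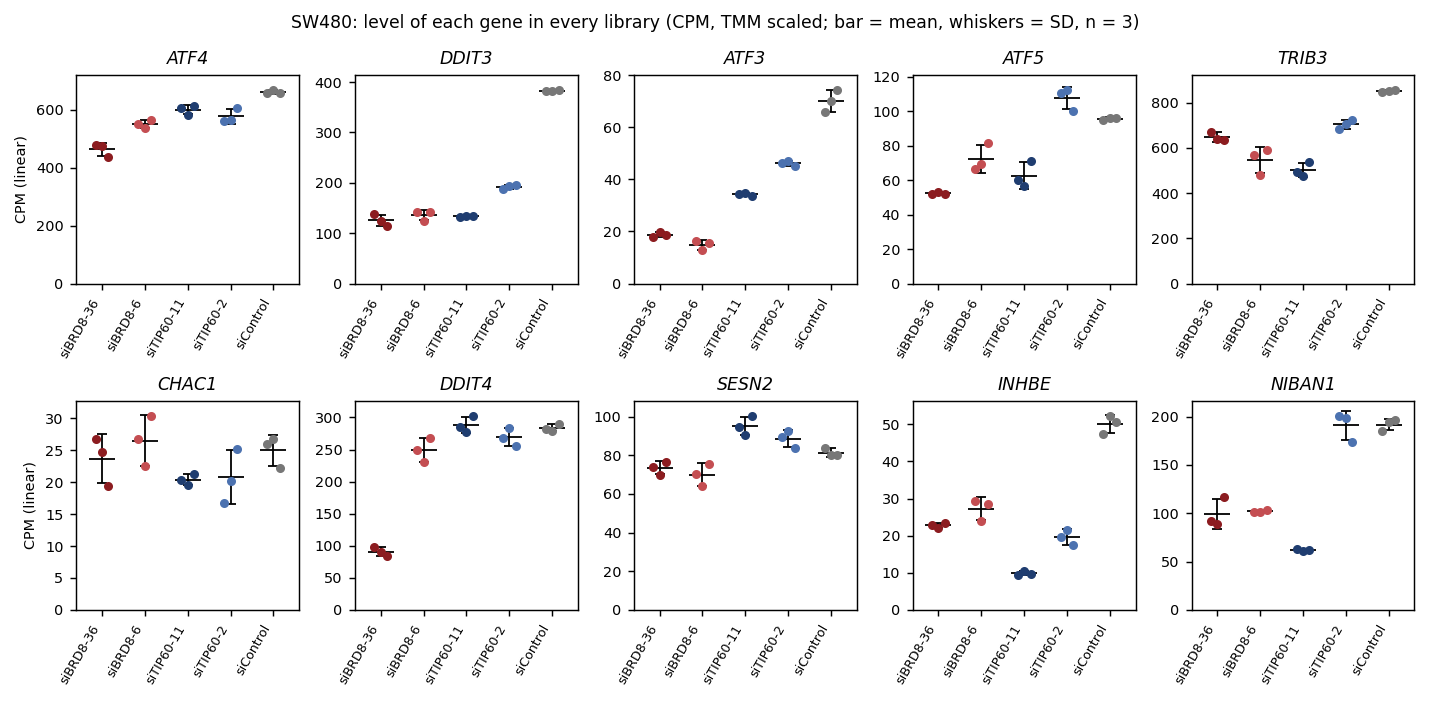
CPM (linear axis from 0) of each gene in every SW480 library by siRNA, with the mean as a bar and the SD of 3 libraries as whiskers. DDIT4 lies at 83.9 to 97.4 CPM with siBRD8-36 and near the control range with both TIP60 siRNAs, and NIBAN1 with siTIP60-2 overlaps the controls.

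Among the growth inhibitors, DDIT4 (chr10:72273920-72276036), the gene of the mTORC1 inhibitor REDD1, fell in HCT116 with both targets. It stood there at 37.5, 39.4 and 40.1 CPM with siBRD8-36 and at 193, 184 and 190.3 CPM with siBRD8-6, against 419, 447 and 444 CPM with the control. With siTIP60-11 it stood at 136, 163 and 134 CPM and with siTIP60-2 at 284, 399 and 347 CPM. The groups did not overlap with the control, and siTIP60-2 came nearest to it. The change was -2.35 ± 0.08 for BRD8 (adjusted p = 1.15e-07, edgeR) and -0.97 ± 0.08 for TIP60 (adjusted p = 0.01002). The TIP60 call was lost without control replicate 2 (adjusted p = 0.0668, the highest over the alternatives, of which the lowest was 3.39e-06). In SW480 DDIT4 stood at 97.4, 90.6 and 83.9 CPM with siBRD8-36 and at 249, 231 and 268 CPM with siBRD8-6, against 283, 279 and 290.2 CPM with the control. TIP60 depletion left 284, 277 and 302 CPM with siTIP60-11 and 268, 283 and 256 CPM with siTIP60-2. The fall with siBRD8-6 was small (-0.19 ± 0.06) beside that with siBRD8-36 (-1.65 ± 0.07), and the BRD8 call (adjusted p = 0.0234) was lost in 7 of 24 alternatives, 4 of which left out 1 library, control replicate 1 or 3 or siBRD8-6 replicate 1 or 2. DDIT4 did not pass with TIP60 (-0.03 ± 0.05, adjusted p = 1), and its opposite-strand partner DDIT4-AS1 had at most 12 counts in a library.

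SESN2 (chr1:28259527-28282491), another mTORC1 inhibitor and a leucine sensor, varied little. In HCT116 its means were 58.6 ± 1.67 CPM with siBRD8-36, 84.7 ± 2.16 with siBRD8-6, 59.9 ± 3.19 with siTIP60-11 and 59.4 ± 5.38 with siTIP60-2, against 71.3 ± 7.95 with the control (SD, n = 3 each). The BRD8 siRNAs moved it in opposite directions (-0.29 ± 0.08 and 0.25 ± 0.07). TIP60 depletion lowered it by 0.26 ± 0.06 on the log2 scale (adjusted p = 0.0161, 0.000440 to 0.185 over the alternatives). That call was lost without any 1 of 4 libraries, control replicate 3, siTIP60-2 replicate 1, and siTIP60-11 replicates 1 and 3. In SW480 neither target was called by the joint rule, with means of 73.5 ± 3.35 CPM with siBRD8-36, 69.9 ± 5.91 with siBRD8-6, 95.1 ± 4.80 with siTIP60-11 and 88.6 ± 4.40 with siTIP60-2, against 81.4 ± 2.20 with the control. There the BRD8 libraries lay below and the TIP60 means above the control. Taken alone, siBRD8-6 (-0.22 ± 0.07, adjusted p = 0.0110) and siTIP60-11 (0.23 ± 0.07, adjusted p = 0.00756) passed the test and the other siRNA of each target did not, and BRD8 and TIP60 depletion differed from each other by -0.35 ± 0.05 (adjusted p = 3.12e-07). On TPM, SESN2 was called higher with TIP60 in SW480 by the joint rule (0.38 with a pseudocount of 1).

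NIBAN1 (chr1:184790724-184974550, listed as FAM129A in GENCODE release 29), whose protein is known to modulate phosphorylation of translation factors under stress, had a deep fall in HCT116. It stood there at 6.86, 6.79 and 7.87 CPM with siBRD8-36 and at 10.2, 10.3 and 11.0 CPM with siBRD8-6, against 64.4, 47.7 and 66.9 CPM with the control. The TIP60 libraries held 6.55, 7.75 and 7.19 CPM (siTIP60-11) and 12.4, 14.01 and 14.9 CPM (siTIP60-2). All depleted libraries stood far below the controls, among which replicate 2, the library with the high ribosomal protein share, was the lowest. SW480 libraries had it at 92.4, 88.8 and 116 CPM with siBRD8-36 and at 101, 102 and 103 CPM with siBRD8-6, against 185, 194 and 196 CPM with the control. With siTIP60-11 it stood at 62.6, 61.1 and 62.0 CPM, and with siTIP60-2 at 200.3, 198 and 174 CPM. BRD8 depletion lowered it by 0.93 ± 0.06 (adjusted p = 5.54e-10, edgeR), but of the TIP60 siRNAs siTIP60-11 lowered it and siTIP60-2 left it overlapping the controls (-1.63 ± 0.08 and -0.01 ± 0.07). The TIP60 siRNAs differed by -1.62 ± 0.08 (adjusted p = 5.15e-15, edgeR). KAT5 had 21 to 33 counts per SW480 library with siTIP60-2 and 48 to 55 with siTIP60-11, and its part in this difference was not tested. KAT5 also overlaps RNASEH2C on the opposite strand, with the same uncertainty as for DDIT3.

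INHBE (chr12:57452323-57459280), the activin subunit gene and the least abundant of the 10 in HCT116, fell in all 4 comparisons. In HCT116 it had 1, 0 and 0 counts with siBRD8-36, 9, 15 and 8 with siBRD8-6, 2, 5 and 1 with siTIP60-11, and 7, 7 and 4 with siTIP60-2, against 31, 20 and 41 counts with the control. Relative to the control, the CPM ratio from summed counts was 0.0102 (exact 95% interval 0.000256 to 0.0583) with siBRD8-36, 0.3304 (0.214 to 0.499) with siBRD8-6, 0.0882 (0.0370 to 0.181) with siTIP60-11 and 0.185 (0.105 to 0.308) with siTIP60-2. These intervals cover counting error only, and the fall was called for BRD8 (adjusted p = 0.00383, edgeR) and TIP60 (adjusted p = 0.000156). With siBRD8-36 the fitted fold depends on the prior count and is not given. Within SW480 it stood at 22.9, 21.98 and 23.3 CPM with siBRD8-36 and at 29.4, 23.8 and 28.6 CPM with siBRD8-6, against 47.5, 52.1 and 50.7 CPM with the control. TIP60 depletion left 9.46, 10.4 and 9.68 CPM with siTIP60-11 and 19.7, 21.6 and 17.5 CPM with siTIP60-2. The groups did not overlap with the control, and the change was -1.01 ± 0.08 for BRD8 (adjusted p = 1.17e-08) and -1.85 ± 0.08 for TIP60 (adjusted p = 1.57e-11).

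Directly compared, the 2 siRNAs of a target did not act to the same degree. In HCT116 all 10 genes were lower with siBRD8-36 than with siBRD8-6 and none higher (28.3% and 28.4% of all genes), from -0.35 ± 0.07 for ATF3 to -3.59 ± 0.12 for CHAC1 among the genes other than INHBE. BRD8 mRNA was itself lower with siBRD8-36 (-0.55 ± 0.11, adjusted p = 0.000376, edgeR), and so was KAT5 (-0.46 ± 0.06, adjusted p = 9.23e-07). BRD8 overlaps KIF20A by 268 bases on the opposite strand, so its counts carry the same uncertainty as those of DDIT3. In SW480 4 genes were lower (27%) and 2 higher (25.9%) with siBRD8-36 than with siBRD8-6, counts near those all-gene shares. DDIT4 led at -1.46 ± 0.07 (adjusted p = 1.10e-16, edgeR), with ATF3 (0.33 ± 0.10) and TRIB3 (0.25 ± 0.06) on the higher side. The ATF3 difference was lost without siBRD8-6 replicate 2, and on TPM it was 0.04 with either pseudocount (adjusted p of up to 0.813). The INHBE difference (-0.26 ± 0.09) was lost in 6 of 23 alternatives, namely without siBRD8-6 replicate 1 or 3 or siBRD8-36 replicate 2, with DESeq2, and with both TPM fits (adjusted p of 0.00433 to 0.222 over the alternatives). Between siTIP60-11 and siTIP60-2, 6 genes were lower (23.5%) and 1, ATF5, was higher (22.5%; not on TPM) in HCT116, and 6 were lower (23.4%) and none higher (21.9%) in SW480. The largest of these differences were those of CHAC1 in HCT116 (-1.74 ± 0.10, adjusted p = 1.10e-10, edgeR) and of NIBAN1 in SW480. KAT5 was higher with siTIP60-11 than with siTIP60-2 in both lines (0.43 ± 0.11 in HCT116 and 0.77 ± 0.17 in SW480), and its part in them was not tested. Mitochondrially encoded genes took 2.73% to 3.07% of counts with siTIP60-11 and 2.15% to 2.53% with siTIP60-2 in HCT116, and 4.02% to 4.31% and 2.80% to 2.90% in SW480, and the part of this in the differences was not tested.

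Between the targets, taking the mean of both siRNAs, 5 genes were lower (31.7% of all genes) and 3 higher (30%) after BRD8 than after TIP60 depletion in HCT116. ATF5, DDIT4 (-1.37 ± 0.07, adjusted p = 8.96e-11), CHAC1 (-1.15 ± 0.08, adjusted p = 7.56e-10), ATF4 (-0.51 ± 0.04) and ATF3 (-0.36 ± 0.05) were lower, and DDIT3 (0.38 ± 0.08), TRIB3 (0.34 ± 0.09) and SESN2 (0.24 ± 0.05) were higher. In SW480 6 were lower (30.2%) and 2 higher (29.7%). The counts of higher genes do not exceed the all-gene shares in either line. ATF3 (-1.25 ± 0.06, adjusted p = 8.79e-16) and DDIT4 (-0.89 ± 0.04, adjusted p = 1.52e-15) led the lower ones, and INHBE (0.84 ± 0.07, adjusted p = 8.53e-11) and CHAC1 (0.29 ± 0.10, adjusted p = 0.0164, 0.000194 to 0.0597 over the alternatives) were higher after BRD8 depletion. The CHAC1 call was lost without siBRD8-6 replicate 3 or siBRD8-36 replicate 1. DDIT3 thus fell further, on the mean of both siRNAs, with TIP60 in HCT116 but with BRD8 in SW480 (-0.29 ± 0.04, adjusted p = 2.02e-06, edgeR). This test did not require the siRNAs of a target to agree. In HCT116 the group means of DDIT3 interleaved, at 10.8 CPM (siTIP60-11), 14.4 (siBRD8-36), 26.5 (siTIP60-2) and 33.4 (siBRD8-6). Those of TRIB3, CHAC1, ATF4, DDIT4 and SESN2 also interleaved there, while those of ATF3 and ATF5 did not. In SW480 the means of DDIT3 interleaved as well, at 125.5 CPM (siBRD8-36), 133.7 (siTIP60-11), 136.2 (siBRD8-6) and 192.3 (siTIP60-2). Those of ATF5 in SW480 did so too. DDIT4 in SW480 stood at 90.6 CPM with siBRD8-36 but at 249 with siBRD8-6, against 269 and 288 with siTIP60-2 and siTIP60-11.

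The difference between the lines in their response was tested as an interaction in a fit of all 30 libraries. It was the log2 fold change in HCT116 minus that in SW480. Each change was the mean of both siRNAs, which did not have to agree. For BRD8 depletion 8 genes had a lower (21.9% of all genes) and 1 a higher value (12.5%), and for TIP60 depletion 8 had a lower (18.1%) and 2 a higher value (13.1%). The median over all genes was -0.10 for BRD8 and -0.06 for TIP60. NIBAN1 differed by -1.92 ± 0.12 for BRD8 (adjusted p = 5.02e-13) and by -1.81 ± 0.12 for TIP60 (adjusted p = 2.20e-12). CHAC1 differed by -2.47 ± 0.16 for BRD8 (adjusted p = 1.19e-12), and ATF3, the exception, by 2.04 ± 0.10 (adjusted p = 4.15e-17). For DDIT3 the BRD8 siRNAs went opposite ways. The level left was 44.6% of the control mean in HCT116 and 35.6% in SW480 with siBRD8-6, and 19.3% and 32.8% with siBRD8-36. DDIT3 differed little for BRD8 on the mean of both (-0.28 ± 0.09, adjusted p = 0.0184, edgeR). That call was lost in 13 of 38 alternatives, with an adjusted p of 0.000415 to 0.272 over them. In 8 of these 1 library was left out, namely replicate 2 of control, siBRD8-6 or siBRD8-36 in HCT116, or, in SW480, any control replicate or replicate 1 of siBRD8-36 or siTIP60-11. The INHBE difference for TIP60 (-1.11 ± 0.30, adjusted p = 0.00437) was lost without HCT116 control replicate 3 (adjusted p = 0.0511, 0.00119 to 0.122 over the alternatives). SESN2 did not differ beyond the spread for BRD8 (0.09 ± 0.09, adjusted p = 0.491).

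**Figure D5:**
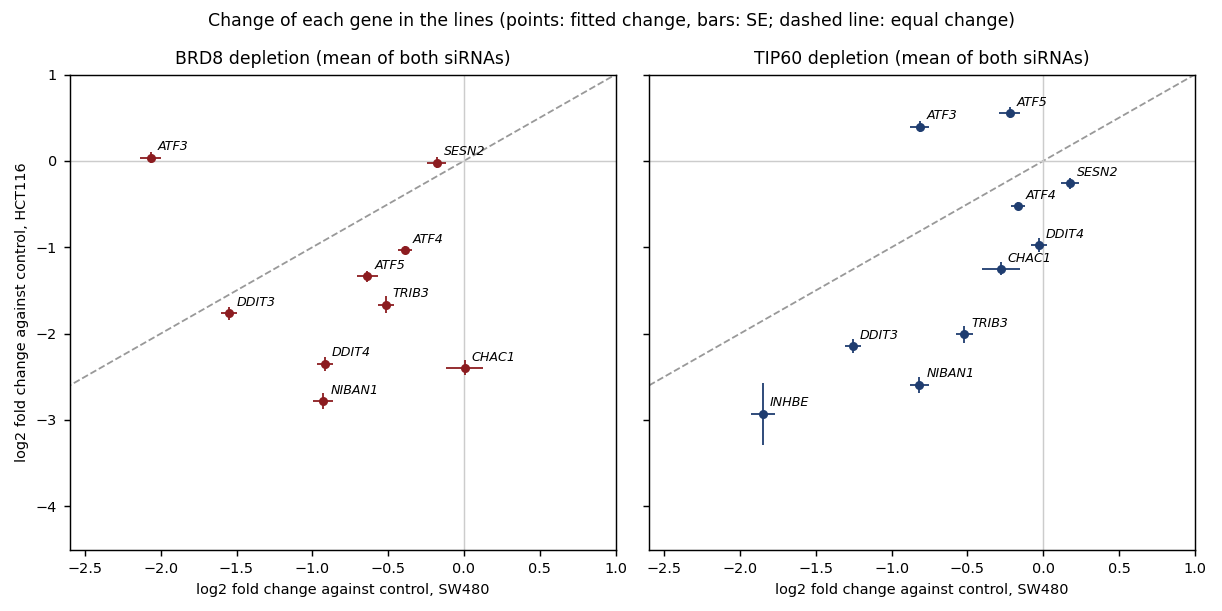
Fitted log2 fold change, the mean of both siRNAs, after BRD8 (left) and TIP60 (right) depletion in HCT116 (vertical) against SW480 (horizontal). Bars show the SE and the dashed line equal change. INHBE is left out on the left because siBRD8-36 left 1 count of it in HCT116. Most genes lie below the line, that is, fell further in HCT116, while ATF3 lies above it in both panels (2.04 and 1.17 apart) and ATF5 on the right (0.74); SESN2 on the left lies just above it, a difference that did not pass the test.

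Other genes of the pathway were read from lists chosen with earlier results of these data known. Beside their counts stand the shares of all tested genes that fell, 12.2% with BRD8 and 14.1% with TIP60 in HCT116 and 14% and 12.1% in SW480, and that rose, 12.2%, 13.7%, 12.9% and 11.5% in the same order. Of 21 further genes known as ATF4 targets, 14 of the 19 tested fell and none rose in HCT116 with BRD8, and 14 of 19 fell and none rose with TIP60. NUPR1, a stress-induced chromatin protein gene, changed by -2.33 ± 0.31 with BRD8 (adjusted p = 0.00619, edgeR). It was scarce in HCT116, averaging 1.53 CPM with the control siRNA and 0.618 CPM or less with each BRD8 siRNA. The size of that change therefore rests on few counts and is uncertain. PHGDH, the gene of the first enzyme of serine synthesis, changed by -2.28 ± 0.09 with TIP60 (adjusted p = 1.31e-08, edgeR). In SW480, 10 of 21 fell and none rose with BRD8, with the stress hormone gene GDF15 at -0.84 ± 0.07, and 15 fell and 2 rose with TIP60, with NUPR1 at -1.25 ± 0.13. The list medians were -1.41, -0.99, -0.53 and -0.49 in that order, beside -0.02, -0.03, 0.00 and 0.01 over all genes.

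The lists of upstream genes did not all share a direction. The kinase and eIF2 lists held genes that fell and genes that rose, while the phosphatase and leucine zipper lists leaned lower where genes were called. Several counts, of 0 or 1 gene in lists of 7 or 8, lie near the all-gene shares. These were 12.2%, 14.1%, 14% and 12.1% lower and 12.2%, 13.7%, 12.9% and 11.5% higher. Of 7 genes of the eIF2alpha kinases and their activators, none fell and 3 rose with BRD8 in HCT116 (OMA1, a mitochondrial protease that relays stress, 0.85 ± 0.08; EIF2AK4, the amino acid sensor GCN2; and GCN1, its activator). With TIP60 in HCT116, EIF2AK3, the kinase PERK, fell (-0.39 ± 0.08, adjusted p = 0.0102) and OMA1 and GCN1 rose. In SW480, GCN1 rose with BRD8 (0.30 ± 0.05) and with TIP60 (0.46 ± 0.05), and EIF2AK3 fell with TIP60 (-0.44 ± 0.07). Of 8 genes of eIF2 and eIF2B subunits, EIF2S2 and EIF2S3 fell in all 4 comparisons, whereas the numbers that rose were 5, 1, 0 and 0 in the order of the preceding paragraph. PPP1R15A, the gene of the phosphatase subunit GADD34 that reverses eIF2alpha phosphorylation, fell in SW480 with BRD8 (-1.36 ± 0.06, adjusted p = 1.94e-13) and TIP60 (-0.91 ± 0.06) and in HCT116 with TIP60 (-0.65 ± 0.06), and did not pass in HCT116 with BRD8 (-0.20 ± 0.06, adjusted p = 1). Of the 7 phosphatase and feedback genes that include it, 0, 3, 3 and 3 fell and 0, 1, 0 and 0 rose in the same order. Among 15 related leucine zipper factors 6, 9, 6 and 7 fell and 2, 2, 1 and 1 rose, and CEBPG, a dimer partner of ATF4, fell in all 4, by 1.37 ± 0.05 and 1.20 ± 0.05 on the log2 scale in HCT116 with BRD8 and TIP60.

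Genes of the other arms of the unfolded protein response are controlled by ATF6 and IRE1. Of these, 11 of 16 fell in SW480 with BRD8 (14% of all genes) and 15 of 16 with TIP60 (12.1%). In HCT116, 12 of 16 fell with TIP60 (14.1%) and 4 of 16 with BRD8 (12.2%). This difference in counts was not tested, and none rose by the joint rule. That rule calls no gene on which the siRNAs part. With BRD8 in HCT116, CALR stood at 1120 CPM with siBRD8-36 and 833 with siBRD8-6, against 927 with the control, and PDIA6 at 399 and 261, against 310. HYOU1, PDIA4, HSP90B1 and CRELD2 likewise lay above the control mean with siBRD8-36 and below it with siBRD8-6. HSPA5, the chaperone BiP, changed by -0.88 ± 0.04 with BRD8 (adjusted p = 3.42e-10) and -1.16 ± 0.04 with TIP60 (adjusted p = 3.44e-13) in SW480. Of 12 p53 targets, 6 rose and none fell in HCT116 with BRD8 (12.2% and 12.2% of all genes) and 7 rose and none fell with TIP60 (13.7% and 14.1%), with CDKN1A, the gene of the cell cycle inhibitor p21, at 1.21 ± 0.06 and 1.41 ± 0.06. In SW480, whose p53 gene is known to be mutated, 2 rose and 2 fell with BRD8 (12.9% and 14% of all genes) and 2 rose and 1 fell with TIP60 (11.5% and 12.1%), which is near the shares of all genes. SESN1, a p53-controlled paralogue of SESN2, rose in HCT116 with BRD8 by 0.99 ± 0.06, where SESN2 was lower with siBRD8-36 and higher with siBRD8-6. The 7 genes listed here as CHOP targets included TRIB3. They also included HSPA5 and DNAJC3, already counted among the ATF6 and IRE1 genes, so the 2 lists overlap. Of the 7, 2 fell and 1 rose with BRD8 and 4 fell and 1 rose with TIP60 in HCT116. In SW480, 3 fell and none rose with BRD8, and 4 fell and 1 rose with TIP60. The single genes that rose are near the all-gene shares of 12.2%, 13.7% and 11.5%. Of 8 tested paralogues of the 10 genes, 1 fell in each comparison, which is near the all-gene shares of 12.1% to 14.1%, and 3, 3, 1 and 3 rose. TRIB2 rose with BRD8 in both lines, where TRIB3 fell, by 1.03 ± 0.06 in HCT116 and by 1.41 ± 0.06 in SW480 (adjusted p = 3.00e-09 and 1.63e-14 in that order).

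As a description, the genes whose log2 CPM ran most like that of each regulator were found by the smaller of the Pearson correlations over the 15 libraries of each line, among 13887 genes. The libraries share siRNAs and controls, so these values carry no test. SLC3A2, the heavy chain of an amino acid transporter and a known ATF4 target, stood nearest to ATF4 (r = 0.998 in HCT116 and 0.947 in SW480), with the mitotic kinase gene AURKA practically level by the smaller value (0.961 and 0.946). ATF5 was followed by the checkpoint kinase gene CHEK1 (0.946 and 0.916), MCMBP (0.920 and 0.913) and FANCG (0.926 and 0.904). DDIT3 was followed by the neuronal enolase gene ENO2 (0.936 and 0.958) and CEBPG (0.927 and 0.955), DDIT4 by NIPSNAP2 (0.967 and 0.974), INHBE by TMCO3 (0.932 and 0.942), and both NIBAN1 (0.964 and 0.924) and TRIB3 (0.900 and 0.896) had OSBPL6, a lipid-binding protein gene, among their nearest 3. CHAC1 had no gene as near, with TBL2 first at 0.747 and 0.707.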

How the data were processed

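The tools named in the submitters' processing notes are RSEM 1.3.3, STAR 2.7.3a and Trimmomatic 0.33, with the build hg38. A directional kit and 100 ng of RNA were used per library, and reads were single and 60 bases long, per the labels' protocols. How strand was set in counting is not stated in any source used here. Per the file headers, each file holds RSEM's expected count per gene, in which a read matching several genes is divided among them. TPM, which is also scaled for transcript length, is likewise deposited.

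Expected counts were rounded and each line was fitted with its 15 libraries by edgeR 4.0.16 (quasi-likelihood, robust, TMM, expression filter) in R 4.3.3. Lines were compared in 1 fit of 30 libraries. The joint rule for a target is given in the text; where the 2 siRNAs moved a gene in opposite directions, its p was set to 1 before adjustment. SE was obtained from the log2 fold change and the F statistic. CPM used TMM scaling. Coordinates are from GENCODE release 29 (GRCh38) and start-site windows from RefSeq (GRCh38.p14). No 2 libraries held identical values, and 30 replicate pairs differed beyond counting noise (chi-square per gene 1.47 to 21.3).

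The 10 genes, the lists and the tests were chosen with earlier results of these data known. The genes named are the 10, BRD8 and KAT5, and, of each list, up to 4 genes with the largest change in a comparison. Library-level exceptions, CEBPG in SW480 and the ATF6 and IRE1 genes on which the BRD8 siRNAs parted were named after their values were seen. Alternatives were DESeq2 1.42.0, its size factors in edgeR, a fit with no filter, one keeping genes with a CPM of 1 or more in 3 libraries, limma 3.58.1 on log2(TPM + 1) and log2(TPM + 0.1), only the groups compared, a replicate block, leaving out each library, and, added after seeing the data, the direction rule applied after adjustment. The scripts were tested on simulated data.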

Additional observations from a re-analysis of the deposited data

Results flagged for a closer look

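The response of 9 of the 10 genes to BRD8 depletion and of all 10 to TIP60 depletion differed between the lines by the interaction test (edgeR, adjusted p under 0.05). This test took the mean of both siRNAs, which did not have to agree. The BRD8 siRNAs went opposite ways for DDIT3. The ATF4 difference was larger with siBRD8-36 (31.6% of the control mean in HCT116 and 70.2% in SW480) than with siBRD8-6 (75.3% and 83.3%). For BRD8, the log2 fold change in HCT116 minus that in SW480 was -2.47 for CHAC1, -1.92 for NIBAN1, -1.50 for DDIT4, -1.22 for TRIB3, -0.77 for ATF5, -0.72 for ATF4, -0.28 for DDIT3 and 2.04 for ATF3. For INHBE it was -2.87, but this rests on 1 count over the HCT116 libraries with siBRD8-36, depends on the prior count and ranged over the alternatives between -3.64 and -0.49, so its size is not to be read. For TIP60 the same difference was -1.81 for NIBAN1, -1.53 for TRIB3, -1.11 for INHBE, -1.01 for CHAC1, -0.98 for DDIT4, -0.93 for DDIT3, -0.47 for SESN2, -0.40 for ATF4, 0.74 for ATF5 and 1.17 for ATF3. The CHAC1 and ATF5 differences for TIP60 were larger with siTIP60-11 than with siTIP60-2. CHAC1 stood at 23.0% of the control mean in HCT116 and 81.6% in SW480 with siTIP60-11, and at 76.8% and 83.0% with siTIP60-2. ATF5 stood at 165% and 65.3% with siTIP60-11, and at 131% and 112% with siTIP60-2. The lines also differed in depth, and line and depth cannot be told apart.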

How the results depend on the processing

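With limma on TPM, all genes called numbered 2375 (pseudocount 1) and 2332 (pseudocount 0.1) for BRD8 in HCT116, against 3891, and 2764 and 2738 for TIP60, against 4437. The stress regulators lower in SW480 numbered 4 with either pseudocount for BRD8, against 8, and 2 with either for TIP60, against 4, and 1, SESN2, was higher with TIP60. On that scale the median of all genes in SW480 lay higher by 0.26 and 0.28 for BRD8 and by 0.20 and 0.21 for TIP60; the cause was not tested. It moved by 0.25 and 0.27 between the control lines, by -0.16 and -0.19 for the BRD8 and -0.16 and -0.18 for the TIP60 difference between lines, and by -0.14 and -0.15 between the TIP60 siRNAs in SW480. Count-based alternatives shifted genes too. Between the control lines the median shift was -0.11 with DESeq2, -0.12 with the filter on a CPM of 1 and -0.12 with only the groups compared. For the BRD8 difference between lines it was 0.07, 0.11 and 0.12 in that order. The TIP60 difference of INHBE between the lines turned to 0.36 with log2(TPM + 1), a pseudocount of about the size of its HCT116 level.

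Leaving out each library gave 7 to 8 regulators lower for BRD8 and 4 to 5 for TIP60 in SW480, and 8 to 8 and 7 to 8 in HCT116, with 9 to 10 of 10 differing between the lines for TIP60 and 8 to 9 for BRD8. Calls over all genes ranged from 3389 to 4082 and 3897 to 4604 in HCT116 and from 3439 to 4172 and 2989 to 3916 in SW480, for BRD8 and TIP60. Deviations of same-numbered replicates correlated weakly in HCT116 (-0.06 to 0.15, median 0.05, against a median of -0.03 for different numbers) and about 0 in SW480 (-0.16 to 0.18, median -0.01, against 0.00). Not every pair passed 0.1, so the numbers were not taken to pair the samples. A fit with the replicate number as a block called 4068, 4669, 3939 and 3460 genes for BRD8 and TIP60 in HCT116 and BRD8 and TIP60 in SW480, and changed none of the 130 single-gene calls. Low counts limit INHBE and NUPR1 in HCT116.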
